A study of Mus musculus with 122 samples.

Results

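Dense clusters of C/EBPb-bound regions were mapped in mouse alveolar macrophages, which live in the air spaces of the lung and clear surfactant and microbes. C/EBPb is a leucine-zipper transcription factor that binds DNA as a dimer, and its preferred site is a palindrome of TTGC half-sites. The clusters came from the peak lists of 2 chromatin immunoprecipitation (ChIPmentation) samples, which held 27105 and 22558 peaks. The lists merged into 29873 regions, of which 18752 had a peak in both lists by an overlap of at least 1 bp. Shared regions with at most 12500 bp between neighbours were chained, and chains of at least 4 regions were kept. This gave 901 chains with 4832 member regions, 25.8% of the shared regions, and left 13920 other shared regions. The members were chosen by these ChIP peaks, so their number, spacing and height are descriptions and carry no test.

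C/EBPb is one of several related factors that work in myeloid cells together with PU.1, and regions bound close together often mark genes that define a cell's identity. The alveolar macrophage depends on GM-CSF, the cytokine also named CSF2, and on the nuclear receptor PPARg, which governs its handling of surfactant lipid. Marco and Mrc1 encode scavenger and mannose receptors of this cell, and formyl peptide receptors guide phagocytes toward bacterial peptides. Many of these genes carried a chain.

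The ChIP samples were 2 replicates of bronchoalveolar lavage macrophages from wild-type C57BL/6 mice, with the C-19 antibody from Santa Cruz. Chromatin accessibility (ATAC-seq peaks) came from lavage macrophages kept for 7 days with CSF2 at 20 ng/ml and then given mouse IFNα at 1000 units/ml. Of these cultures, 3 were MxCre Cebpb flox/flox (Cebpbtm1.1Elgaz/J with Tg(Mx1-cre)1Cgn/J) and 2 were MxCre without the floxed allele. All 5 cultures carried Mx1-cre and received IFNα, so neither group was untreated, and deletion in culture depends on interferon-driven Cre. RNA (3′-end MARS-seq of sorted cells) was compared in 6 pairs of groups, each with controls of its own.

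In the first pair, Cebpb −/− macrophages of adult lavage that were sorted as CD11b low (C/EBPb tm1Pfj on a mixed background, n = 4, CD11b-low KO) were set against +/+ cells (n = 4, WT). In the second, CD11c +/Cre Cebpb flox/flox cells (Tg(Itgax-cre,-EGFP)4097Ach/J, C57BL/6, n = 4, CD11cCre KO) were set against CD11c +/Cre cells without the floxed allele (n = 3, CD11cCre WT). Cre was driven there by the Itgax (CD11c) promoter in both groups. The third pair held the RNA libraries made alongside ATAC samples of the germline line, Cebpb −/− (n = 3, chromatin-matched KO) and +/+ (n = 3). The fourth and the fifth pair came from whole lung at embryonic day 18 (E18) of the germline line. They were premature alveolar macrophages, Cebpb −/− (n = 4) and +/+ (n = 3), and Ly6Chi fetal monocytes, Cebpb −/− (n = 4) and +/+ (n = 3). In the sixth, CD11b-low cells of Lip/Lip mice (C/EBPtm1.2Acle, n = 4, Lip) were set against +/+ cells on the same mixed background (n = 3, Lip WT). The Lip allele leaves the short isoform of C/EBPb, which lacks the activation domain. Germline alleles remove or alter C/EBPb in all cells of the animal. The ages of the adult mice were not stated, and the labels do not say whether replicates were separate animals, so p-values measure the spread between these samples, which may be technical.

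The libraries held 642269 to 5932246 counts. Cebpb itself read 31.8, 57.2, 49.3 and 35.2 CPM (counts scaled to library size) in CD11b-low KO cells, against 1460, 1230, 589 and 549 CPM in WT. In the other 4 knockout groups it fell by 3.45 to 5.22 on the log2 scale, whereas Lip cells, whose allele is transcribed, had 830 to 1000 CPM against 502 to 685 CPM in Lip WT. The summed level of 27 alveolar macrophage identity genes was 10300 to 13500 CPM in CD11b-low KO and 18400 to 21000 CPM in WT. The sum of 20 monocyte and tissue macrophage markers was 39300 to 56900 CPM in CD11b-low KO and 3220 to 3980 CPM in WT, with no marker at 0 in all libraries. That sum was higher in all KO or Lip libraries than in their controls in 5 of the 6 pairs and overlapped in the E18 Ly6Chi monocytes (19600 to 23400 CPM in KO, 21700 to 25600 CPM in WT). In bulk RNA, fewer cells of a type and less RNA per cell cannot be told apart, and the part of these marker shifts in the gene results below was not tested.

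To show what a chain region looks like at a gene, the promoters of 5 chain genes are given here. They are 250 bases that end at the annotated start (RefSeq, GRCm38.p6), each lay under a member region in part or whole, and each held the C/EBP letters TTNNGCAA on one of its strands. Capitals mark those letters.
Cidec: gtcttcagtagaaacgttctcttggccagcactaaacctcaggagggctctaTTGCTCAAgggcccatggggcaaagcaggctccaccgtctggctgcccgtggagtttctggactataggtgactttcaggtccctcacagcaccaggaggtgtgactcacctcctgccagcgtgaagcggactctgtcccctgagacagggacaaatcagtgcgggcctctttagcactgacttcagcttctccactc
Ctsk: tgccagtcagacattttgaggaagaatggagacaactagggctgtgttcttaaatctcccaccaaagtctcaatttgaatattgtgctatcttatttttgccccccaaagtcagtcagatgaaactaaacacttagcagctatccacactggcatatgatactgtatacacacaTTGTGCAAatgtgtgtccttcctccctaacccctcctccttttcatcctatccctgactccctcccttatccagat
Mmp8: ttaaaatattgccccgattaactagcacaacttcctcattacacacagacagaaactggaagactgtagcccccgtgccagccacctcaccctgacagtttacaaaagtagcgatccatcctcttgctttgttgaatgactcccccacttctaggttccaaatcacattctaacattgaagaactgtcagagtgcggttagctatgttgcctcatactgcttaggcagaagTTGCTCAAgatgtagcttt
Plet1: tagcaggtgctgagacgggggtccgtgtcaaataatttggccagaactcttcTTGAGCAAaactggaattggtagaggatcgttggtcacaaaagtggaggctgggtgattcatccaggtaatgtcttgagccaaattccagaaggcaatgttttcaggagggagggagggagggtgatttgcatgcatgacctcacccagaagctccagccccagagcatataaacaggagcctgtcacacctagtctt
Pparg: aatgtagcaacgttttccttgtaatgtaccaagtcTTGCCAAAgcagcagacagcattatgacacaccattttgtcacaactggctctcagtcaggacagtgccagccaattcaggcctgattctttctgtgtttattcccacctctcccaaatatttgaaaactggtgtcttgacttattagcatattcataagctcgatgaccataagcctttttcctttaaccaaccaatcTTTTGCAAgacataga
The Cidec window was chr6:113434765-113435014 on the minus strand, at a start inside the gene body. Its motif began 198 bases before the start, 43 and 53 bases from the summits of the ChIP peaks, whose folds over local background were 14.8 and 16.6. The Pparg window was chr6:115421816-115422065 on the plus strand, at a start that lies within the gene, and its summits rose 40.2-fold and 53.4-fold over background. One of its matches lay 25 and 7 bases from the summits and the other 224 and 192 bases. The Ctsk (chr3:95498960-95499209), Mmp8 (chr9:7558179-7558428) and Plet1 (chr9:50494275-50494524) windows, all on the plus strand, had folds of 26.3 and 31.3, 26.3 and 25.5, and 8.7 and 5.7. Their motifs were farther from the summits than that of Cidec in most cases, at 611 and 544 bases for Ctsk, 39 and 138 for Mmp8 and 189 and 322 for Plet1. The regions at Pparg, Ctsk and Mmp8 were open in all 5 cultures, and those at these starts of Cidec and Plet1 were open in none. A second member region, at the outer start of Cidec (window chr6:113435711-113436010, which held no C/EBP letters), was open in all 5 cultures.

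A match is a description of letters and does not show a site in use. Of the 300-base promoter windows that a member region overlapped (471 windows), 17.62% held TTNNGCAA on either strand, against 17.63% of windows under other shared regions (2502 windows) and 10.8% of all 32851 windows. The full palindrome TTGCGCAA, which TTNNGCAA includes, was in 1.06%, 1.40% and 0.18% of the same windows. The AP-1 letters TGANTCA were in 8.92%, 5.84% and 7.81%, and the PU.1 letters GAGGAAGT in 3.61%, 4.12% and 3.2%. The C/EBP letters were therefore as frequent under member regions as under other shared regions.

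Most chains were short. A total of 630 chains held 4 or 5 regions, 231 held 6 to 9, and 40 held 10 or more. The median chain spanned 20.2 kb, from 4.3 to 88.5 kb, and the median distance between neighbours in a chain was 3226 bp. Just inside and outside the rule stood neighbours 12499 and 12501 bp apart, and 832 chains of 3 regions fell short by 1 region. Member regions were somewhat wider than the other shared regions (medians 846 and 775 bp) and somewhat higher, with median folds of 12.49 and 11.52 in the lists, against 10.93 and 10.16. Fewer members lay at a promoter, 304 (6.3%), against 1684 (12.1%) of the other regions. The promoter windows did not cover every gene: of the 92 genes named in this report, 71 had one. Shares at a promoter therefore miss some genes, and the part of this in the difference was not tested. Gene bodies held 52.8% of members and 49.1% of the other regions, and the space between genes held 40.9% and 38.8%.

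The chain with the most regions, 21 over 87.5 kb at chr8:126826231-126913744, overlapped no coding gene. The nearest start site with a promoter window, that of Tomm20, was 32.2 kb away. The next, with 18 regions at chr11:83576922-83664173, ran across the chemokine genes Ccl9, Ccl6, Ccl3 and Ccl4. The third, with 17 regions at chr2:167709807-167778374, began 20.9 kb from the start site of Cebpb, whose own body (chr2:167688915-167690432) was on no chain. Chains of 16 regions covered Lrrfip1 and the interleukin-1 receptor kinase gene Irak2, a chain of 15 covered part of the checkpoint ligand gene Pdcd1lg2 and of Ric1, one of 14 lay on the adiponectin receptor gene Adipor2, and one of 13 on Tmem236 and Mrc1. The Mrc1 chain, chr2:14184101-14272570, was the longest, at 88.5 kb.

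Some genes of alveolar macrophage function had shorter chains with high peaks. Fpr1 and Fpr2 shared 11 regions, with folds of 7.1 to 40.6 in the first list and 6.6 to 38.7 in the second. Pparg had 6 regions, all inside the gene, with folds of 10.9 to 47.2 and 6.6 to 53.4. Marco had 7 regions at chr1:120497807-120532398, only 1 of them in the gene body. Of all chains on assembled chromosomes, 187 overlapped no coding gene (median distance to a start site 53.7 kb), 545 overlapped 1 and 163 overlapped 2 or more. A start site lay inside 375 chains. Only start sites with a promoter window were counted, so that distance can be too long and that number too low.

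**Figure D1:**
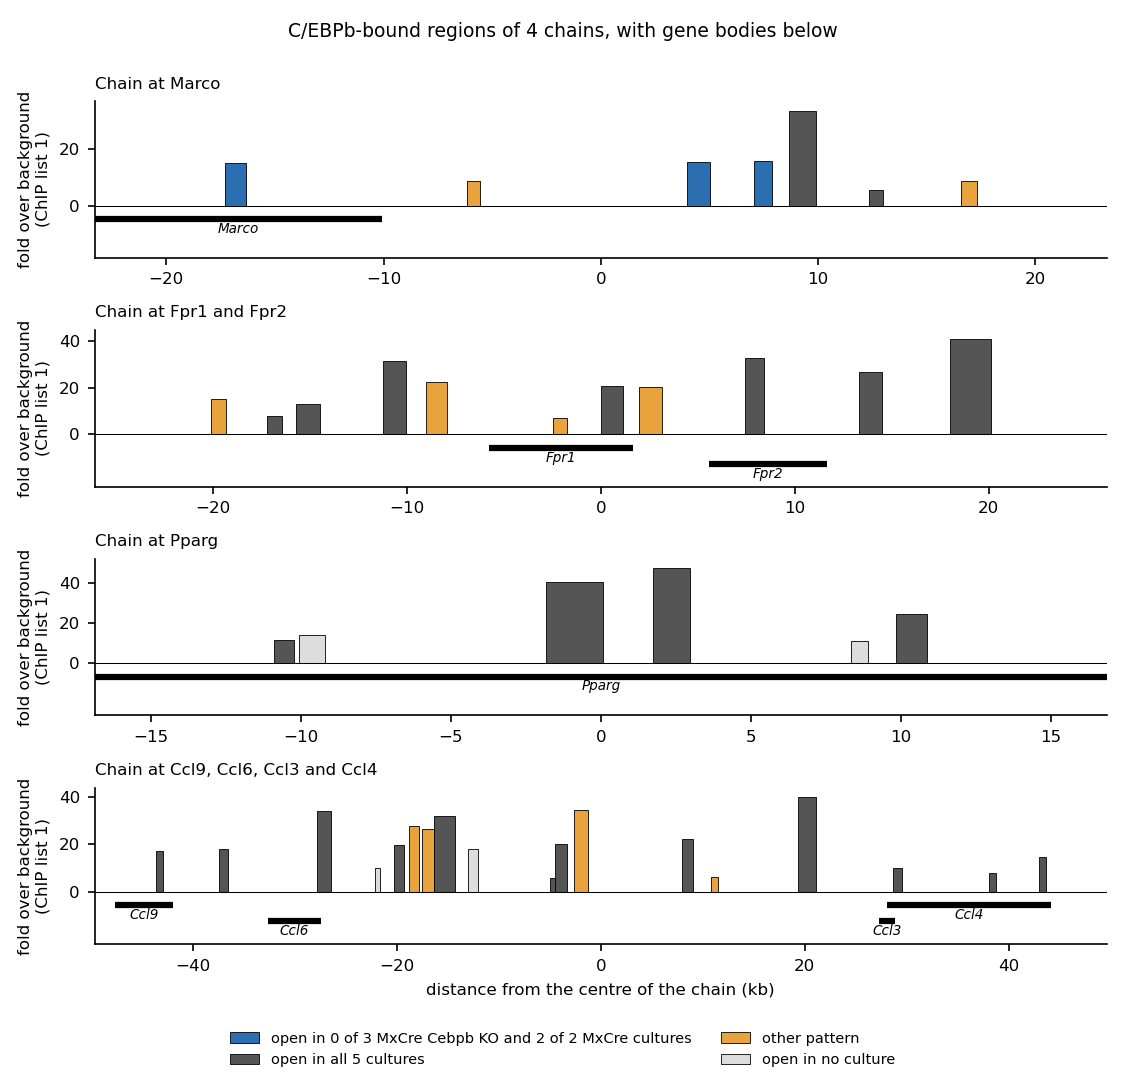
Maps of 4 chains: the horizontal axis is the distance from the chain's centre in kb, bar height is each region's fold over local background in the first ChIP list, and black lines are gene bodies. Blue bars, open in 0 of 3 MxCre Cebpb KO and in both MxCre cultures, appear at Marco (3 of its 7 regions) and at none of the other 3 loci, and grey bars were open in all 5 cultures (7 of 11 regions at Fpr1 and Fpr2).

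The ATAC cultures gave a measure that the rule did not use. Fewer member regions were open in MxCre Cebpb KO cultures, 71.11%, 66.51% and 66.35%, than in MxCre cultures, 73.65% and 82.18%. The groups did not overlap. The means were 67.99% ± 2.7 (SD, n = 3) and 77.92% ± 6.03 (SD, n = 2), a difference of −9.93 percentage points, with p = 0.2 in a two-sided exact permutation test. With 3 and 2 cultures 0.2 is also the smallest p possible. The size of the difference depended on the MxCre cultures: it was −5.66 percentage points without MxCre replicate 2 and −14.19 without MxCre replicate 1. It was −15.79 with ATAC peaks of −log10 q at least 10 (exact permutation p = 0.4). The cultures had 101952, 90597 and 88282 peaks in MxCre Cebpb KO, against 81880 and 92432 in MxCre. With the same number of peaks taken from each culture the difference was −11.85 percentage points.

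The other shared regions had the same pattern at a higher level, with 76.98% ± 2.12 open in MxCre Cebpb KO and 86.04% ± 4.81 in MxCre. The gap between members and other regions changed by −0.86 percentage points between genotypes (exact permutation p = 0.4) and by 0.0 without MxCre replicate 2, and its sign turned with stricter peak rules: it was +0.56 with ATAC peaks of −log10 q at least 10, and +3.05 when a peak had to cover at least 50% of a region. The loss in the knockout was thus not shown to differ between chained and other regions.

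Longer chains held fewer open regions in both genotypes. Single regions were open in 78.97% of cases on average in MxCre Cebpb KO and 87.24% in MxCre cultures. Chains of 4 or 5 regions had 69.48% and 79.11%, and chains of 10 or more had 64.6% and 73.97%. In all, 2813 members (58.22%) were open in all 5 cultures, against 9570 other regions (68.75%), and 699 members (14.47%) were open in none, against 1193 (8.57%).

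**Figure D2:**
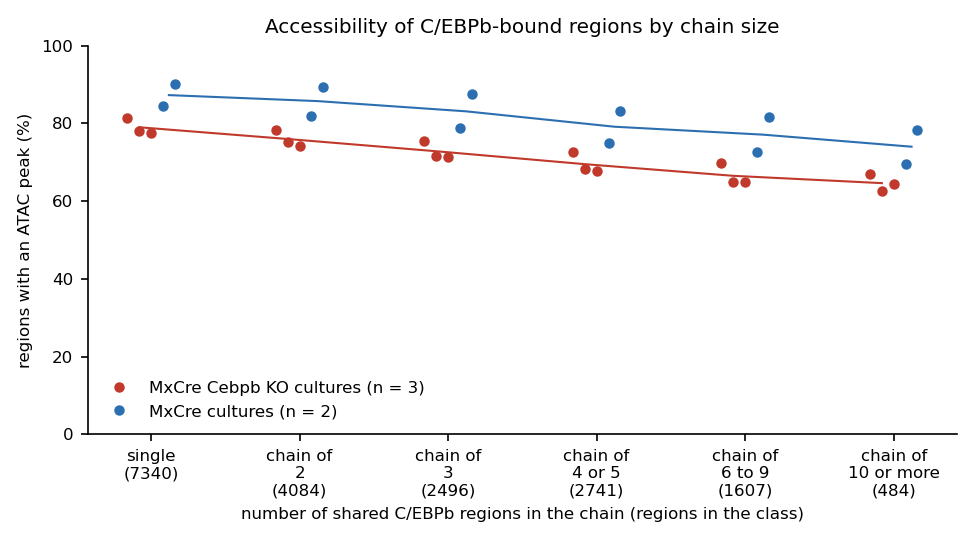
Percent of shared C/EBPb regions that overlap an ATAC peak (vertical axis) by the number of regions in their chain (horizontal axis), with a point per culture and lines through the group means. Mean shares are 78.97% in MxCre Cebpb KO and 87.24% in MxCre cultures for single regions, and 64.6% and 73.97% in chains of 10 or more.

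Regions that were open in both MxCre cultures and in none of the MxCre Cebpb KO cultures numbered 251 among members (5.19%) and 683 among the others (4.91%), so the share in chains was near the background of 4.98% over all shared regions. The reverse pattern, open in all 3 knockout cultures alone, was seen in 13 members (0.27%) and 23 others (0.17%), with a background of 0.19%. The 251 lost regions were spread over 219 chains, and 6 chains lost 3 regions each. Those lay at the chemokine receptor gene Ccr1, at Ggta1, which encodes the enzyme that makes the alpha-gal epitope, at Mtss1, at Marco, at Kcnip4 and in a gene-less stretch of chromosome 19. At Marco the lost regions had folds of 15.0, 15.5 and 15.8 in the first ChIP list, while its highest region, with 33.6, was open in all 5 cultures. None of the 11 regions at Fpr1 and Fpr2 was lost by this measure, and none of the 6 at Pparg, of which 4 were open in all 5 cultures and 2 in none.

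Chain genes were the 878 genes of the count tables whose body overlapped a chain, on 705 chains. A chain includes the gaps between its regions, so a chain gene can hold no member region in its body. That was so for 15 of those tested in CD11b-low KO, and for Phlda1, Apoc1 and Apoc4 named below. In CD11b-low KO macrophages 153 of the 713 chain genes tested (21.5%) were lower than in WT and 55 (7.71%) were higher, by edgeR's quasi-likelihood test at an adjusted p (Benjamini-Hochberg over all genes tested) under 0.05. Of all genes, 6.83% were lower and 8.29% were higher. Genes with a shared region within 10 kb but no chain had 7.29% lower and 8.52% higher. Genes with no bound region within 10 kb had 2.77% and 8.05%. The median log2 fold change was −0.18 over chain genes and 0.0 over all genes. The share of lower genes was thus above that of all genes, and the share of higher genes was close to it.

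Chain genes also differed in properties that go with detection. Their median length was 35.7 kb, against 26.5 kb for bound genes without a chain and 18.2 kb for unbound genes, and their median WT level was 77.7 CPM against 36.7 CPM for all genes tested. The part of length and level in the counts was not tested.

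The share of lower genes was above that of all genes in the other 5 pairs too. The chains are those of adult wild-type macrophages in every pair, since no ChIP sample came from E18 or Lip cells. In CD11cCre KO cells 151 of 779 chain genes (19.4%) were lower and 104 (13.4%) higher, against 6.48% and 10.3% of all genes. Every CD11cCre KO library was shallower than every CD11cCre WT library (2255774 to 4188425 counts, against 4521719 to 5932246), and the part of depth was not tested. In chromatin-matched KO cells 247 of 788 (31.3%) were lower and 107 (13.6%) higher, against 12.6% and 14.6% of all genes. In E18 premature macrophages 173 of 760 (22.8%) were lower in KO and 130 (17.1%) higher, against 9.55% and 12.0%. In that pair the summed dendritic cell markers were 346 to 784 CPM in KO and 14.6 to 18.6 CPM in WT, with all 4 markers tested higher and Xcr1 at 0 in all libraries, and mitochondrial genes took 0.205 to 0.61% of counts in KO and 0.734 to 1.44% in WT. In the 3 adult knockout pairs the mitochondrial share was above that of the controls without overlap, at 1.17 to 1.8% in CD11b-low KO and 0.497 to 1.15% in WT. Summed erythroid markers were 697 to 1860 CPM in chromatin-matched KO and 196 to 202 CPM in its WT. They were 35.3 to 73.3 CPM in Lip and 2.07 to 3.45 CPM in Lip WT, and overlapped between the groups in the other pairs. Summed epithelial markers were 99 to 121 CPM in CD11cCre KO, against 54.6 to 62.3 CPM. They were 110 to 226 CPM in E18 premature KO, against 26 to 31 CPM, and 100 to 188 CPM in Lip, against 37.2 to 40.8 CPM. In chromatin-matched KO they were lower, at 7.96 to 17.1 CPM against 26.8 to 71.1 CPM. In CD11b-low KO the summed neutrophil markers were 114 to 261 CPM, against 44.2 to 72.3 CPM in WT, with 1 of 3 tested higher. The part of these shifts in the calls was not tested. The E18 Ly6Chi monocytes had the fewest calls, with 45 of 710 (6.34%) lower in KO and 23 (3.24%) higher, against 1.64% and 1.99% (68 in either direction, against 3.62% of all genes). In Lip cells 186 of 740 (25.1%) were lower and 111 (15.0%) higher, against 11.8% and 14.0%. The median log2 fold change of chain genes was −0.08, −0.23, −0.12, −0.09 and −0.09 in these 5 pairs in the order given, and between −0.02 and 0.02 over all genes. The numbers rest on some libraries more than on others: without WT replicate 2 the E18 Ly6Chi pair called 28 chain genes in place of 68, and without CD11cCre WT replicate 1 the CD11cCre pair called 161 in place of 255. All genes called fell as well, from 334 to 114 and from 1677 to 1095.

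**Figure D3:**
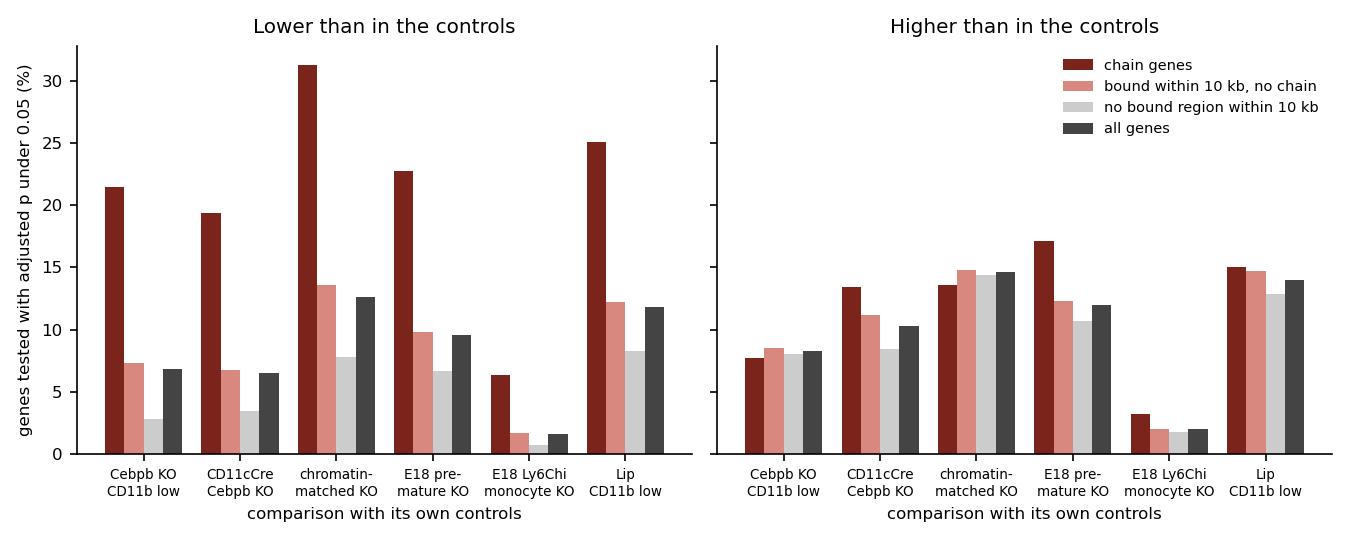
Percent of genes tested with an adjusted p under 0.05 (vertical axis), lower on the left and higher on the right, for chain genes, bound genes without a chain, unbound genes and all genes in 6 comparisons. Lower calls take 21.5% of chain genes and 6.83% of all genes in CD11b-low KO cells, while higher calls take 7.71% and 8.29%.

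Genes on the longest chains were lower most often. Of the 35 tested genes on a chain of 10 or more regions, 15 (42.9%) were lower in CD11b-low KO, against 23.8% of genes on chains of 6 to 9 regions and 18.8% on chains of 4 or 5. The same order was seen in chromatin-matched KO (48.6%, 32.6% and 29.5%), in E18 Ly6Chi KO (11.4%, 8.53% and 4.96%) and in Lip (34.3%, 30.3% and 22.2%). In CD11cCre KO (29.7%, 17.2% and 19.6%) and E18 premature KO (33.3%, 21.9% and 22.4%) the middle class was not above the lowest. Genes of chains that lost an ATAC region were lower in CD11b-low KO in 39 of 168 cases (23.2%), against 114 of 545 (20.9%) for chains with no such region, and the order was the same in 4 of the other 5 pairs. In E18 premature KO it was the other way, with 19.0% and 23.9%. For chains without a coding gene, the nearest gene with a promoter window was lower in CD11b-low KO in 15 of 82 cases (18.3%). It was higher in 5 (6.10%), and the shares over all genes were 6.83% and 8.29%. Lower and higher shares were 13.3% and 13.3% in CD11cCre KO and 29.7% and 11.0% in chromatin-matched KO. They were 17.8% and 16.7% in E18 premature KO, 5.88% and 5.88% in E18 Ly6Chi KO, and 20.2% and 11.9% in Lip. These differences in share were not tested.

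Fpr1 and Fpr2 were among the chain genes that fell most. Fpr1, a formyl peptide receptor (chr17:17876471-17883939), had 7.6, 24.3, 1.13 and 0 CPM in CD11b-low KO cells, against 348, 383, 444 and 406 CPM in WT, a log2 fold change of −5.93 (SE 0.55, adjusted p = 6.56e-07). Its neighbour Fpr2 had 4.15, 20.8, 5.1 and 0 CPM in KO, against 379, 330, 242 and 208 CPM in WT (−5.52, SE 0.54, adjusted p = 1.21e-06). The groups were far apart for both genes, and KO replicate 2 was the highest of the knockout libraries for each. Fpr1 and Fpr2 are related in sequence, and how the authors' counting treated reads shared by such genes was not stated.

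Both receptors were also lower in the other 5 pairs. Fpr1 had 2.82, 1.76, 0 and 0.193 CPM in E18 premature KO, against 194, 190 and 174 CPM in WT, and 2.12, 0, 4.92 and 1.01 CPM in E18 Ly6Chi KO, against 56.7, 56.3 and 59.1 CPM in WT. In Lip cells Fpr1 kept 55.9, 67.8, 55 and 33.9 CPM, against 314, 308 and 323 CPM in Lip WT (−2.61, SE 0.21). Fpr2 fell by 1.1 on the log2 scale in Lip (SE 0.21, adjusted p = 0.00322) and by 4.34 in CD11cCre KO (SE 0.26, adjusted p = 4.51e-07). The CD11cCre call for Fpr1 (−3.39, adjusted p = 0.0256) did not hold without KO replicate 1 (adjusted p = 0.0946), without KO replicate 4 (adjusted p = 0.0648) or with no filter on low counts (adjusted p = 0.0549).

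Marco, the scavenger receptor, had 11.8, 86.7, 1.7 and 2.52 CPM in CD11b-low KO, against 662, 1210, 792 and 925 CPM in WT (−5.44, SE 0.88, adjusted p = 0.000889). KO replicate 2 again stood above the other knockout libraries and still far below WT. Marco fell to 23 to 65.5 CPM in Lip, against 646 to 1100 CPM in Lip WT (−4.48, SE 0.32), and to 0 to 8.81 CPM in E18 premature KO, against 80.6 to 300 CPM in WT (−6.46, SE 0.88). In the chromatin-matched pair the values were 0.418, 0 and 46.5 CPM in KO, against 756, 1140 and 1130 CPM in WT, and the adjusted p of 0.0503 missed the threshold. Without KO replicate 3 it was 8.93e-08, and DESeq2 called the gene with all libraries (adjusted p = 0.0191). In CD11cCre KO Marco was at 18.6 to 137 CPM, against 650 to 875 CPM in CD11cCre WT (−3.45, SE 0.56).

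C5ar1, Mcemp1 and Mrc1 also fell in CD11b-low KO. C5ar1, the receptor for complement C5a, had 4.15, 5.2, 5.1 and 10.1 CPM in CD11b-low KO, against 110, 72.6, 38.8 and 36.2 CPM in WT (−3.42, SE 0.48). Mcemp1, a membrane protein of mast cells and myeloid cells, had 17.3, 67.6, 21.5 and 8.8 CPM in KO, against 798, 656, 533 and 590 CPM in WT (−4.61, SE 0.49). Mrc1 had 504, 215, 211 and 284 CPM in KO, against 798, 927, 800 and 660 CPM in WT (−1.38, SE 0.26, adjusted p = 0.000925). In chromatin-matched KO Mrc1 was at 57.5, 63.6 and 77.1 CPM, against 768, 747 and 779 CPM in WT (−3.53, SE 0.18), a larger distance with no overlap. Mrc1 was not called in CD11cCre KO (−0.26, adjusted p = 0.326) or Lip (−0.13, adjusted p = 0.368).

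**Figure D4:**
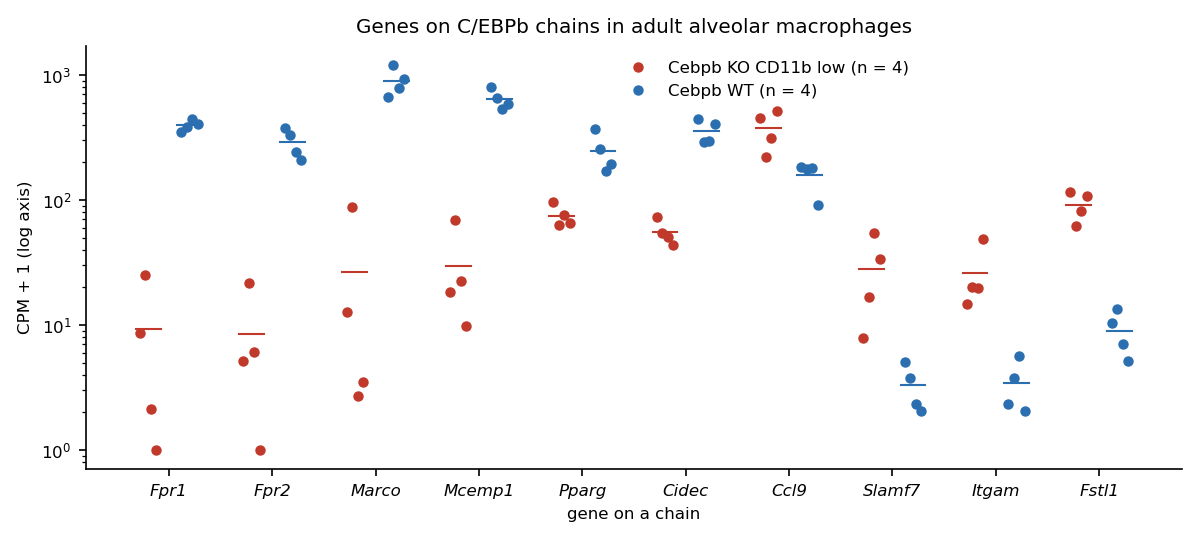
CPM + 1 on a log axis for 10 chain genes (horizontal axis) in 4 CD11b-low KO (red) and 4 WT (blue) libraries, a point per library and a line at each mean. Fpr1 is at 0 to 24.3 CPM in KO and 348 to 444 CPM in WT, and Fstl1 at 60.7 to 115 CPM in KO and 4.14 to 12.3 CPM in WT.

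Other large falls in CD11b-low KO were in genes of varied function. Wfdc21, a small secreted protein of the whey acidic protein family, had 6.22, 76.3, 5.1 and 6.29 CPM in KO, against 190, 586, 305 and 260 CPM in WT (−4.18, SE 0.81, adjusted p = 0.00338). Patj, a scaffold of cell polarity, had 4.84, 13.9, 5.66 and 1.26 CPM in KO, against 125, 115, 78.3 and 70.4 CPM in WT (−4.03, SE 0.45). Phlda1, which encodes a pleckstrin homology-like domain protein, had 11.1, 20.8, 8.49 and 3.77 CPM in KO, against 121, 174, 135 and 113 CPM in WT (−3.7, SE 0.31). No library of one group reached the other in these 3 genes. In Lip cells Wfdc21, Patj and Phlda1 were lower as well, with log2 fold changes of −1.47, −2.73 and −1.82.

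The chain genes of lipid uptake and storage that were called were lower. Of the 6 chain members among 24 genes of lipid uptake and storage (Cd36, Cidec, Acsl1, Dgat2, Pnpla2 and Pparg), 2 were lower in CD11b-low KO, 3 in CD11cCre KO, 4 in chromatin-matched KO, 5 in E18 premature KO, 2 of 5 tested in E18 Ly6Chi KO and 4 in Lip, and none was higher in any of these pairs. The median over all measured list members was −0.43 in CD11b-low KO and −1.68 in E18 premature KO, against medians of 0.0 and −0.02 over all genes. The list as a whole moved both ways: 5 members were lower and 1 higher of 21 tested in CD11b-low KO, 6 and 4 of 21 in CD11cCre KO, 10 and 2 of 21 in chromatin-matched KO, 14 and 1 of 19 in E18 premature KO, 5 and 0 of 17 in E18 Ly6Chi KO, and 12 and 4 of 21 in Lip. Pparg, whose 6 regions lie inside its body (chr6:115360879-115490404), had 94.7, 62.4, 74.2 and 64.1 CPM in CD11b-low KO, against 368, 253, 169 and 192 CPM in WT (−1.71, SE 0.25, adjusted p = 6.6e-05).

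Pparg was further down in chromatin-matched KO, at 12.7, 20.9 and 23.9 CPM against 139, 201 and 231 CPM in WT (−3.31, SE 0.28). In E18 premature KO it was at 9.68, 6.69, 7.94 and 5.8 CPM against 159, 176 and 179 CPM in WT (−4.5, SE 0.23). It fell least in CD11cCre KO, at 155, 156, 190 and 178 CPM against 246, 230 and 247 CPM in CD11cCre WT (−0.51, SE 0.11, adjusted p = 0.00821). The Lip value was −1.19 (SE 0.11, adjusted p = 3.35e-12). The knockout and control libraries did not overlap in any of these 5 pairs.

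Cidec, a lipid droplet protein and PPARg target, had 71.9, 53.8, 49.3 and 42.8 CPM in CD11b-low KO, against 446, 290, 298 and 403 CPM in WT (−2.71, SE 0.24, adjusted p = 2.08e-07). Its log2 fold change was −0.94 in CD11cCre KO, −4.89 in chromatin-matched KO and −2.92 in Lip, and in E18 premature KO it stood at 0 to 0.58 CPM, against 11 to 27.4 CPM in WT. Of its 2 promoter regions, the one with the printed sequence was open in no culture and the outer one in all 5. Cd36, a fatty acid translocase with chain regions on 2 chains, was not called in CD11b-low KO (−0.44, SE 0.25, adjusted p = 0.249) and fell in chromatin-matched KO to 15.5, 27.6 and 37.5 CPM, against 215, 213 and 227 CPM in WT. Dgat2, the last enzyme of triglyceride synthesis, was at 21.5 to 32.9 CPM in E18 premature KO, against 194 to 228 CPM in WT (−2.96, SE 0.22), and Adipor2 fell by 1.03 in CD11b-low KO (SE 0.22, adjusted p = 0.00236).

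Abca1 and Ctsk were higher in some adult pairs. Abca1, the cholesterol exporter, with 8 regions in its body, had 135, 81.5, 109 and 88 CPM in CD11b-low KO, against 10.7, 23.3, 18.7 and 25.9 CPM in WT (2.4, SE 0.36, adjusted p = 7.75e-05), and was higher in CD11cCre KO by 1.6 (SE 0.18). Ctsk, a cysteine protease, had 1370, 1150, 1200 and 1810 CPM in CD11b-low KO, against 309, 548, 525 and 391 CPM in WT (1.64, SE 0.29, adjusted p = 0.000482), and rose in CD11cCre KO and Lip by 1.53 and 1.2. Both genes were above every control library in these pairs. Abca1 was not called in Lip (0.44, adjusted p = 0.49) or chromatin-matched KO (1.13, adjusted p = 0.188), and Ctsk was not called in chromatin-matched KO (0.73, adjusted p = 0.0707). Of the 4 genes of the lysosome and lipid breakdown list on chains (Lipa, Npc2, Abca1 and Hexa), 2 were higher in CD11b-low KO and none was lower, while Lipa, the lysosomal acid lipase, was lower in chromatin-matched and E18 premature KO and higher in CD11cCre KO. Over the whole list, 4 of 18 tested were higher in CD11b-low KO and 2 lower.

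The 27 alveolar macrophage identity genes had 11 members on chains. In CD11b-low KO 10 of these were tested, of which Pparg, Marco, Mrc1 and Cidec were lower and Ctsk was higher. In chromatin-matched KO 6 of 10 were lower and none was higher, in E18 premature KO 7 of 10 were lower and Itgax was higher, in CD11cCre KO 3 were lower and 3 higher, in Lip 4 were lower and 3 higher, and in E18 Ly6Chi KO 2 of 7 were lower and none was higher. Over the whole list, 14 genes were lower and 3 higher of 26 tested in CD11b-low KO, and 18 and 2 of 26 in chromatin-matched KO. The counts were 17 and 3 of 23 in E18 premature KO, 10 and 7 of 26 in CD11cCre KO, 13 and 5 of 26 in Lip, and 5 and 1 of 15 in E18 Ly6Chi KO. Falls were thus not particular to the members on chains. The median over the whole list was −1.01 in CD11b-low KO, −3.42 in chromatin-matched KO and −3.64 in E18 premature KO, and nearer 0 in E18 Ly6Chi KO (−1.23), Lip (−0.51) and CD11cCre KO (−0.2). So an alveolar macrophage gene on a chain could move either way: Itgax, the integrin CD11c, had 1220, 1070, 1110 and 977 CPM in Lip, against 513, 547 and 540 CPM in Lip WT (1.04, SE 0.11, adjusted p = 3.92e-11).

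Among the 30 macrophage transcription factors, 10 were on chains. Tfec, of the MiT family, had 28.3, 29.5, 23.8 and 21.4 CPM in CD11b-low KO, against 84.4, 72.6, 50.2 and 48.7 CPM in WT (−1.3, SE 0.26, adjusted p = 0.00142), and fell by 3.15 in E18 premature KO (SE 0.22). With Pparg it made up the 2 lower members in CD11b-low KO, where none of the 9 tested was higher. Over the whole list, 4 of 27 tested were lower there and 4 higher. Spi1, which encodes PU.1 and has 8 regions in its chain, was not called in CD11b-low KO (838, 1620, 681 and 537 CPM, against 662, 513, 810 and 791 CPM in WT) or in chromatin-matched KO (586 to 838 CPM, against 708 to 731 CPM in WT). Junb and Runx1 rose in E18 premature KO by 1.77 (SE 0.26) and 1.16 (SE 0.22).

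The chemokine chain gave no common direction. Ccl9 had 336, 414, 388 and 321 CPM in CD11cCre KO, against 65.6, 60.7 and 73.9 CPM in CD11cCre WT (2.45, SE 0.14, adjusted p = 2.11e-07), whereas in Lip it had 69.1, 76.1, 48.9 and 79.2 CPM, against 126, 102 and 145 CPM in Lip WT (−0.86, SE 0.15, adjusted p = 7.43e-05). Ccl6, at the same chain, had 556, 212, 330 and 204 CPM in E18 premature KO, against 1800, 1460 and 1210 CPM in WT (−2.19, SE 0.33), and 8700, 7630, 9490 and 9350 CPM in Lip, against 6040, 6630 and 6390 CPM in Lip WT (0.47, SE 0.09). Ccl3 was higher in CD11cCre KO, at 24.5 to 32.5 CPM against 7.35 to 16 CPM in CD11cCre WT (1.3, SE 0.24, adjusted p = 0.00212). In CD11b-low KO Ccl3, Ccl4 and Ccl6 were not called, and Ccl9 was called higher (1.25, adjusted p = 0.0146) but not without WT replicate 4 (adjusted p = 0.0514). The mouse Ccl genes are close in sequence and Ccl3 and Ccl4 overlap in the annotation, so reads could be split among them.

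Tnf and the Cxcl genes depended on 1 library in the chromatin-matched pair. Tnf, the inflammatory cytokine, had 2.07, 8.67, 6.8 and 17.6 CPM in CD11b-low KO, against 25.4, 52, 29.5 and 43.5 CPM in WT (−2.23, SE 0.42, adjusted p = 0.000802), and Cxcl2 fell there as well (−2.85, SE 0.55, adjusted p = 0.00109). In chromatin-matched KO Tnf was at 159, 50.8 and 2370 CPM, against 69.2, 69 and 66.2 CPM in WT, and Cxcl1 at 231, 45.3 and 3130 CPM, against 23.8, 54.3 and 49.7 CPM, and neither was called (adjusted p = 0.135 and 0.0932). DESeq2 called both (adjusted p = 0.0299 and 0.00538), and Cxcl1 was called without KO replicate 2 (adjusted p = 0.0461). KO replicate 3 stood apart for these genes, and without it 419 chain genes were called in that pair (295 lower, 124 higher), against 354 with it. All genes called rose as well, from 2795 to 3787. Without that library 37.3% of chain genes and 17.2% of all genes were lower, against 31.3% and 12.6% with it. In E18 premature KO Tnf was higher, at 172, 174, 176 and 144 CPM against 89.7, 86.7 and 69.7 CPM in WT (1.02, SE 0.19, adjusted p = 0.00161).

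Genes that rose were fewer. Slamf7, a receptor of the SLAM family, had 6.91, 15.6, 53.2 and 32.7 CPM in CD11b-low KO, against 4.02, 2.74, 1.34 and 1.04 CPM in WT (3.71, SE 0.63, adjusted p = 0.000319). It was higher in CD11cCre KO, at 23.7 to 94.1 CPM against 0.495 to 5.22 CPM, and in Lip, at 60.3 to 97.8 CPM against 0 to 2.3 CPM in Lip WT. Its 4 regions were open in all 5 cultures. Fstl1, a secreted follistatin-like protein, had 115, 60.7, 80.4 and 107 CPM in CD11b-low KO, against 9.37, 12.3, 6.02 and 4.14 CPM in WT (3.59, SE 0.36), and 658, 338, 300 and 402 CPM in Lip, against 2.07, 4.03 and 1.65 CPM in Lip WT. The groups did not overlap for either gene in these pairs.

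Synpo, an actin-binding protein, and Apoc4, an apolipoprotein, were almost unread in WT. Synpo had 19.4, 26, 36.2 and 35.2 CPM in CD11b-low KO, against 0, 0, 1.34 and 0 CPM in WT, and Apoc4 had 26.3, 10.4, 23.2 and 31.4 CPM, against 0, 1.37, 1.34 and 0 CPM. Both were called higher (adjusted p = 1.21e-06 and 2.38e-05), and no fold is given because the WT libraries held 2 and 3 counts of them in all. Synpo was also higher in CD11cCre KO, at 26 to 54 CPM against 11.5 to 16.4 CPM, and in Lip, at 31.6 to 40.3 CPM against 10.3 to 12.7 CPM.

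Of the 20 monocyte and tissue macrophage markers, Cx3cr1, Cd14, Gpnmb and Itgam were on chains. In CD11b-low KO Gpnmb, Itgam and Cx3cr1 were called higher and none was lower. Over the whole list 16 of 19 tested were higher there and 0 lower, so rises were not particular to the members on chains. Cd14 was lower in CD11cCre KO and E18 Ly6Chi KO and higher in chromatin-matched KO. Gpnmb was lower in E18 premature KO. Cx3cr1, the fractalkine receptor, was at 15.2 to 50.3 CPM in CD11b-low KO, against 0 to 6.21 CPM in WT (3.37, SE 0.68, adjusted p = 0.00209). Itgam encodes CD11b, the antigen by which these knockout cells were divided, and the WT cells were not divided, so its 13.8, 19.1, 18.7 and 47.8 CPM in CD11b-low KO, against 1.34, 2.74, 4.69 and 1.04 CPM in WT, are given as a description. It was also higher in E18 premature KO, which had no such division, at 200 to 272 CPM against 40.7 to 53.9 CPM in WT (2.24, SE 0.21). No marker of lymphocytes, dendritic cells, erythroid cells or stroma was on a chain, whereas Cdh1 of the 6 epithelial markers was. Those lists held 5 or 6 genes each, and 878 of 22050 genes in the count table were on chains. Their absence is therefore a description and is not read as a result.

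Falls that recurred across pairs took a larger share of chain genes than of all genes. In the 3 adult knockout pairs together, 70 of 709 chain genes (9.87%) were lower in each, against a background of 2.49%, and 31 (4.37%) were higher in each, against 4.14%. In all 6 pairs, 11 of 656 chain genes (1.68%) were lower, against 0.24% of all genes, and 3 (0.46%) were higher, against 0.43%. The 11 were Fpr1, Fpr2, Mcemp1, Pparg, Trem1, Sort1, Abcd2, Fam129a, Fcor, Nrg4 and the predicted gene Gm5150. The 3 were Eps8, St6gal1 and H2-DMa. They were singled out after these values were seen.

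Trem1, a receptor that amplifies inflammatory signals, with 9 regions in its chain, had 13.1, 20.8, 10.2 and 11.3 CPM in CD11b-low KO, against 56.2, 46.5, 47.5 and 36.2 CPM in WT (−1.81, SE 0.32), and fell by 1.49 in E18 premature KO (SE 0.22) and 0.63 in Lip (SE 0.15). Sort1, the sorting receptor sortilin, had 34.3, 56.6 and 38.5 CPM in chromatin-matched KO, against 764, 753 and 751 CPM in WT (−4.14, SE 0.23). Abcd2, a peroxisomal fatty acid transporter, had 5.63, 7.4, 2.27 and 1.93 CPM in E18 premature KO, against 183, 209 and 199 CPM in WT (−5.52, SE 0.34). Eps8, an actin regulator, had 77.4, 69.4, 73.1 and 74.2 CPM in CD11b-low KO, against 17.4, 41.1, 25.4 and 44.5 CPM in WT (1.2, SE 0.24), and 31.8, 11.5, 28.1 and 30.4 CPM in E18 Ly6Chi KO, against 1.13, 2.64 and 6.43 CPM in WT (2.96, SE 0.48).

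The recurrence was not equally firm for all of them. Fpr2 and Eps8 kept each of their 6 calls when any 1 library was left out, and Gm5150 was not examined in this way. In the E18 Ly6Chi pair, leaving out WT replicate 2 ended the calls of Trem1 (adjusted p = 0.145), Fam129a (0.072), H2-DMa (0.148), St6gal1 (0.132), Fcor (0.0682), Nrg4 (0.0726) and Pparg (0.0842), and leaving out WT replicate 3 ended that of Abcd2 (0.0574). Other libraries of that pair also ended calls, with adjusted p from 0.0533 to 0.137. They were WT replicates 1 and 3 for Pparg, WT replicates 1 and 3 and KO replicates 1 and 4 for St6gal1, WT replicate 3 and KO replicates 1 and 4 for Fcor, WT replicate 3 for Nrg4 and WT replicate 1 for H2-DMa. In the CD11cCre pair, Mcemp1 lost its call without KO replicate 4 (0.0508), Sort1 without any 1 of the 3 CD11cCre WT libraries or KO replicate 2 (0.0619 to 0.091), and H2-DMa without CD11cCre WT replicate 1 (0.054) or 3 (0.05). In the chromatin-matched pair H2-DMa lost its call without any 1 library other than KO replicate 3 (0.0556 to 0.106). Fam129a lost its E18 premature call without WT replicate 2 or 3 or KO replicate 3 or 4 (0.0521 to 0.115). Nrg4 lost its Lip call without Lip WT replicate 2 or 3 or Lip replicate 2, 3 or 4 (0.0501 to 0.103) and with DESeq2 (0.0933).

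**Figure D5:**
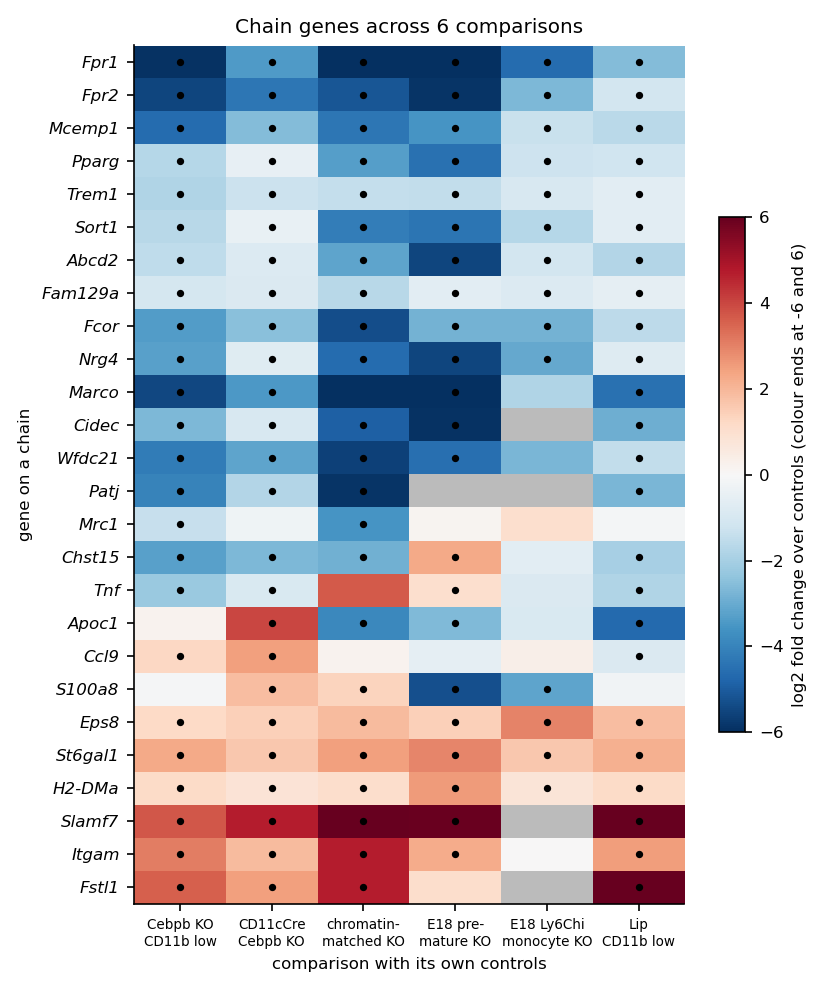
Log2 fold change over the controls of each comparison (colour, ends at -6 and 6) for 26 chain genes (rows) in 6 comparisons (columns). Dots mark adjusted p under 0.05 and grey cells were not tested. Fpr1 to Nrg4 are blue in all 6 columns, while Chst15, Tnf, Apoc1 and S100a8 change colour between columns.

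Several chain genes had opposite directions in different pairs. Chst15, a sulfotransferase of chondroitin chains, had 7.6, 3.47, 5.1 and 0 CPM in CD11b-low KO, against 67, 47.9, 32.1 and 39.3 CPM in WT (−3.28, SE 0.42), but 16.7, 21.8, 15.5 and 19 CPM in E18 premature KO, against 5.27, 2.39 and 3.34 CPM in WT (2.28, SE 0.38). Trib1, a pseudokinase that promotes breakdown of C/EBP proteins, had 15.9, 15.6, 6.8 and 15.1 CPM in CD11b-low KO, against 65.6, 52, 49.5 and 35.2 CPM in WT (−1.97, SE 0.37), but 400, 298, 354 and 204 CPM in E18 premature KO, against 142, 123 and 154 CPM in WT (1.17, SE 0.24). Phlda1 likewise was higher in E18 premature KO, at 623 to 967 CPM against 219 to 275 CPM in WT.

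Apoc1, an apolipoprotein on the chain of Apoc4, had 527, 244, 679 and 816 CPM in CD11cCre KO, against 33.5, 29 and 42.4 CPM in CD11cCre WT (4.01, SE 0.39), but 7.94, 11.9 and 8.39 CPM in chromatin-matched KO, against 141, 151 and 115 CPM in WT (−3.86, SE 0.22). S100a8, a subunit of calprotectin, rose in CD11cCre KO to 61 to 113 CPM, against 21.9 to 23.8 CPM in CD11cCre WT. The summed neutrophil markers moved with it, at 325 to 399 CPM in CD11cCre KO and 49.6 to 72.7 CPM in CD11cCre WT, with 4 of 4 tested markers higher. S100a8 fell in E18 Ly6Chi KO to 80.9 to 101 CPM, against 582 to 1170 CPM in WT (−3.16, SE 0.23). Beside this, the marker sum was 341 to 508 CPM in E18 Ly6Chi KO and 953 to 1680 CPM in WT. The list did not fall as a whole there: of 6 tested markers 2 were lower and 1 was higher, with a median of 0.54. S100a8 is one of those markers, and the part of the other markers in its change was not tested. The pairs differ in strain, allele and sort, and the differences between pairs were not tested.

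Mmp8, the neutrophil collagenase whose promoter is printed above, had 31.2, 25.8, 14.4 and 23.3 CPM in E18 Ly6Chi KO, against 414, 357 and 328 CPM in WT (−3.95, SE 0.23, adjusted p = 7.29e-09), and 12.3, 23.4, 26 and 21.6 CPM in Lip, against 86.9, 73.6 and 88.8 CPM in Lip WT (−1.96, SE 0.19). The summed neutrophil markers, which do not include Mmp8, were also lower in Lip, at 43.6 to 90.4 CPM against 113 to 146 CPM in Lip WT, and their part was not tested. Plet1, a membrane protein of alveolar macrophages whose promoter window is also given, had 10.2, 27.8, 1.13 and 7.74 CPM in E18 premature KO, against 300, 605 and 498 CPM in WT (−5.34, SE 0.69), and 1590, 1770, 1650 and 1600 CPM in Lip, against 858, 888 and 903 CPM in Lip WT (0.9, SE 0.09). F7, coagulation factor VII, was at 0.378 to 5.28 CPM in E18 premature KO, against 191 to 262 CPM in WT (−6.56, SE 0.55), and was not called in CD11b-low KO (−0.3, adjusted p = 0.344). Plet1 thus had opposite directions in E18 premature KO and Lip, and Mmp8 the same direction in E18 Ly6Chi KO and Lip.

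Of the 16 genes of the GM-CSF and TGF-beta list, 3 were on chains, and the STAT5 targets Cish and Pim1 were higher where called. Over the whole list, 4 were higher and 2 lower of 13 tested in CD11b-low KO. The counts were 7 and 0 of 14 in CD11cCre KO and 9 and 3 of 16 in chromatin-matched KO. In E18 premature KO they were 7 and 0 of 16, in E18 Ly6Chi KO 2 and 0 of 16, and in Lip 6 and 0 of 15. Rises were thus not particular to the members on chains. Cish, an inhibitor of STAT5 signalling, had 868, 802, 354 and 403 CPM in E18 premature KO, against 184, 144 and 125 CPM in WT (2.01, SE 0.33), and 171, 326, 271 and 242 CPM in E18 Ly6Chi KO, against 58.6, 56.6 and 52.3 CPM in WT (2.17, SE 0.22). Pim1, a kinase induced by STAT5, was at 228 to 424 CPM in chromatin-matched KO, against 51.4 to 70.7 CPM in WT (2.22, SE 0.27). Cish was not called in CD11b-low KO (0.38, adjusted p = 0.514) or Lip (0.27, adjusted p = 0.628), and its CD11cCre call (0.82, adjusted p = 0.0167) did not hold without CD11cCre WT replicate 1 (adjusted p = 0.0647) or 2 (0.0837). Pim1 was not called in CD11cCre KO (0.59, adjusted p = 0.218) or E18 Ly6Chi KO (0.29, adjusted p = 0.472). Its CD11b-low call (1.13, adjusted p = 0.0142) did not hold without WT replicate 4 (0.0503), KO replicate 2 (0.0576) or KO replicate 3 (0.0522), and its Lip call (1.19, adjusted p = 0.0311) not without Lip WT replicate 2 (0.0956) or 3 (0.119) or Lip replicate 1 (0.06). The third gene of this list on a chain, Tgfbr2, was lower in chromatin-matched KO and higher in CD11cCre KO. None of the 15 genes of sterol and fatty acid synthesis was on a chain.

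Of the genes on the largest chains, Irak2 was higher in CD11b-low KO, at 54.6, 64.2, 46.4 and 51.6 CPM against 25.4, 27.4, 20.1 and 20.7 CPM in WT (1.21, SE 0.23, adjusted p = 0.00084), and in chromatin-matched KO, at 79.4, 81 and 93.2 CPM against 18.9, 19.7 and 21.6 CPM in WT (2.07, SE 0.16). Adipor2 was lower in both, as was Mrc1. Lrrfip1, whose 16 regions all lie in its body, was at 369, 268 and 196 CPM in chromatin-matched KO, against 679, 718 and 532 CPM in WT (−1.21, SE 0.24, adjusted p = 0.00457). Single genes with many bound regions thus had higher or lower RNA in the knockouts, but falls were more frequent. Of 35 tested genes on chains of 10 or more regions, 15 (42.9%) were lower and 2 (5.71%) higher in CD11b-low KO. The shares over all genes were 6.83% and 8.29%. In chromatin-matched KO 18 of 37 (48.6%) were lower and 5 (13.5%) higher, against 12.6% and 14.6% of all genes. More of them were lower than higher in each of the other pairs too.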

How the data were processed

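C/EBPb ChIP peaks (2 samples), ATAC peaks (5 cultures) and RNA counts (6 pairs of groups) were used. The members, gene lists and tests were chosen with earlier results of these data known. Per the submitters' processing notes, tools included STAR 2.6.1a, featureCounts 1.6.3, BWA 0.7.17 and MACS2 2.2.7.1, and the builds GRCm38 and mm10. The authors deposited raw counts per Ensembl gene, and no source used here states whether reads were collapsed by molecular identifier. In the authors' peak lists, called per sample, the score is 10 times the −log10 q without its decimals, the fold is the ratio to local background at the summit, and a −log10 p and a −log10 q are given. The ChIP lists had been filtered after calling, since peak numbers are skipped. The depth behind the peaks is unknown.

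Peaks were merged by 1 bp of overlap and chained. A region counted as open in a culture whose ATAC peak overlapped it by 1 bp. Counts (642269 to 5932246 per library) were fitted per experiment with edgeR 4.0.16 in R 4.3.3: filterByExpr with a minimum count of 10, TMM factors, a robust quasi-likelihood fit and Benjamini-Hochberg adjustment over all genes tested, at 0.05. The CD11b-high libraries of the germline and Lip experiments shared those fits. The fit was tested on simulated counts. DESeq2 1.42.0, RLE factors, no filter, a replicate block and leaving out each library were the alternatives, beside other chain rules. CPM are counts scaled by TMM library sizes. Genes were placed by RefSeq (GRCm38.p6), where 20574 of 22050 matched by symbol, 779 by synonym and 697 not at all. Itgam was listed under 2 gene IDs, and the one with counts was used.

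The text names genes of the 10 largest chains, the 8 largest rises and falls in CD11b-low KO and 3 in each other pair (called, at least 20 CPM on average in 1 group, no overlap, and no predicted, mitochondrial or sex-linked gene), chain genes of the lists, and Cebpb. Trem1, Sort1, St6gal1, Chst15, Fcor, Nrg4, Abcd2, H2-DMa and Fam129a were chosen after their values were seen. Near-identical copies of chemokine, S100 and H2 genes make their counts uncertain. ChIP inputs, the other ATAC samples and the other RNA groups were not analysed here.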

Additional observations from a re-analysis of the deposited data

Results flagged for a closer look

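In 256 groups of 4 libraries among the named genes, 18 held a library far from the rest, by a rule under which chance marks about 1 group in 20. In CD11b-low KO cells replicate 2 was high for Marco (86.7 CPM, others 1.7 to 11.8), Wfdc21 (76.3, others 5.1 to 6.29) and Hivep2 (76.3, others 17.6 to 24.4). Replicate 4 was high there for Itgam (47.8 CPM, others 13.8 to 19.1), Ccl3 (91.8, others 19.1 to 26.6) and Gpnmb (1700, others 1160 to 1230), and replicate 3 was low for Trib1 (6.8, others 15.1 to 15.9). In WT cells of that pair 1 library differed for Synpo (1.34 CPM, others 0), Il21r (2.74, others 0) and Ccl9 (90.1, others 175 to 183). In CD11cCre KO cells the far libraries were those of Wfdc21 (144 CPM, others 24.6 to 41.8), Il21r (18.9, others 6.05 to 8.18), H2-DMa (1560, others 848 to 949) and Atf3 (63.3, others 76.8 to 78.9). In E18 premature KO they were those of Slamf7 (0.378 CPM, others 14.8 to 16.7), Tnf (144, others 172 to 176) and Mmp8 (10.9, others 0 to 1.41), and in E18 Ly6Chi KO that of Fcor (4.57, others 0.678 to 1.01).

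Some chain genes had opposite log2 fold changes in different pairs, with no overlap of the libraries in either. Phlda1 had 1.64 in E18 premature KO, against −3.7 in CD11b-low KO, −2.38 in CD11cCre KO and −3.24 in chromatin-matched KO. Chst15 had 2.28 in E18 premature KO and −3.28, −2.7 and −2.89 in the same 3 adult pairs, and Trib1 had 1.17 and −1.97, −1.36 and −1.18. Tnf had 1.02 in E18 premature KO, −2.23 in CD11b-low KO and −0.93 in CD11cCre KO. That last call did not hold without any 1 of 5 libraries, with adjusted p between 0.0522 and 0.15 (CD11cCre WT replicates 1, 2 and 3, CD11cCre KO replicates 1 and 3). Gpnmb, a glycoprotein of lipid-laden macrophages, had 0.8 in CD11b-low KO, 1.6 in CD11cCre KO, 2.11 in chromatin-matched KO and −2.29 in E18 premature KO. Its CD11b-low call did not hold without WT replicate 2 (adjusted p = 0.0511), WT replicate 4 (0.0576) or KO replicate 4 (0.0613), and its CD11cCre call without KO replicate 4 (0.0613). Plet1 had 0.63 in CD11cCre KO, which did not hold without CD11cCre WT replicate 2 (adjusted p = 0.0538), −2.45 in chromatin-matched KO and −5.34 in E18 premature KO. Apoc1 had 4.01 in CD11cCre KO, −3.86 in chromatin-matched KO and −2.67 in E18 premature KO. S100a8 had 1.83 in CD11cCre KO, 1.35 in chromatin-matched KO, −5.28 in E18 premature KO and −3.16 in E18 Ly6Chi KO. The summed neutrophil markers were 207 to 497 CPM in chromatin-matched KO and 47.9 to 59.5 CPM in its WT, with 5 of 5 tested higher. They were 18.6 to 40.5 CPM in E18 premature KO and 119 to 282 CPM in its WT, with 2 of 3 tested lower. Their part in the S100a8 values was not tested. Apoc4 had a fitted 4.77 in CD11b-low KO, whose WT libraries held 3 counts, so that this value depends on the prior count, and −2.35 in E18 premature KO. The E18 call did not hold without WT replicate 1 (adjusted p = 0.177), 2 (0.0811) or 3 (0.116) or KO replicate 4 (0.0606). The differences between pairs were not tested.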

How the results depend on the processing

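The chain rule set how many members there were. Gaps of at most 5 kb gave 379 chains with 1777 members, 25 kb gave 8188 members, chains of 3 or more gave 1733 with 7328, chains of 5 or more gave 492 with 3196, and ChIP peaks of −log10 q at least 10 gave 379 with 1877. A single ChIP list gave 1229 to 1553 chains and 6932 to 9140 members (the most without ChIP replicate 2). Assembled chromosomes alone, chosen after seeing the data, held 895 chains and 4785 members. The gap in open regions between members and others turned to +0.56 (p = 0.8, exact permutation test) with ATAC peaks of −log10 q at least 10 and to +3.05 (p = 0.2) with at least 50% of a region covered, and the cause was not tested.

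Leaving out 1 library gave 160 to 186 called chain genes in CD11b-low KO, 161 to 359 in CD11cCre KO (161 without CD11cCre WT replicate 1), 251 to 419 in chromatin-matched KO, 228 to 301 in E18 premature KO, 28 to 74 in E18 Ly6Chi KO (28 without WT replicate 2, where all genes called fell to 114, against 334) and 252 to 300 in Lip. All genes called moved as well. In the CD11cCre pair they numbered 1095 without CD11cCre WT replicate 1 and 2688 without KO replicate 4 (359 chain genes), against 1677. In the chromatin-matched pair they numbered 3787 without KO replicate 3 (419 chain genes), against 2795. In all 78 alternatives the percent of chain genes lower was above that of all genes. Whether replicate numbers pair the samples was not settled. Same-number correlations were −0.19 to 0.312, above the highest correlation with another number for some replicates and below it for others. In E18 premature cells they were above it for every replicate, though low (0.0357 to 0.0509). The main fits had no replicate block. With a replicate block 173, 350, 353, 268, 63 and 293 chain genes were called in the 6 pairs in the order of the report, and in CD11cCre KO 2667 genes in all, against 1677. The block also ended the CD11cCre calls of Fpr1 (adjusted p = 0.166), Marco (0.136), Mcemp1 (0.129), Wfdc21 (0.11) and Phlda1 (0.0747), the chromatin-matched calls of Ccl3 (0.179), Ccl4 (0.119) and H2-DMa (0.0551), the E18 premature calls of Apoc4 (0.11) and Fam129a (0.0612), the CD11b-low call of Lrrfip1 (0.0652) and the Lip call of Nrg4 (0.0536). DESeq2 called 235, 267, 379, 331, 87 and 263 chain genes, among 1415, 1711, 2879, 2407, 459 and 1779 genes called in all. Of 2823 alternatives for 257 gene values, 2679 kept direction and call, 132 lost the call, 6 gained it and 6 reversed, all among genes not called. Reversed without 1 library were Spi1 (−0.01, range to 0.59), Ccl3 (−0.36 to 0.53), Ccl4 (−0.06 to 0.70) and Plet1 (−0.32 to 0.02) in CD11b-low KO, and Spi1 (−0.23 to 0.03) and Ccl9 (−0.16 to 1.08) in chromatin-matched KO. The shallowest library (642269 counts) limits calls for low genes.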
